A study of Mus musculus with 8 samples.

Results

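The 40 genes described here are the transcription factor gene Nfe2l2, which encodes NRF2, its inhibitor gene Keap1, and the antioxidant, glutathione, thioredoxin, iron and pentose phosphate genes that surround them. They come from a list of symbols, by a rule that uses no measured value, but the list was chosen with earlier results of these data known. Each symbol matched 1 of the 75078 Ensembl gene rows of the deposited table. All 40 passed the filter on low counts, which left 15916 genes in the test. The samples are αTC1-6 cells, a clonal alpha cell line from a mouse tumour driven by a viral oncogene, so they are dividing cells and not islet alpha cells. Of 8 libraries, 4 (numbered 31, 32, 33 and 34) came from control cells given an empty plasmid, called a stuffer in the series' design text. The other 4 (numbered 45, 46, 47 and 48) came from cells given the Yy1-overexpressing plasmid, Yy1 being a zinc finger factor that binds DNA. All cells were in DMEM labelled 11 mM and were transfected 24 h after seeding. Time of harvest, separate cultures and handling in batches are not given in the sources used here. What the p-values measure is thus sample-to-sample spread, possibly technical in part. Library numbers run in separate blocks by group, so handling and plasmid cannot be told apart.

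NRF2 is held in the cytoplasm and sent for degradation by KEAP1, which senses oxidants and electrophiles through reactive cysteines. When KEAP1 is modified, NRF2 accumulates, pairs with small MAF proteins and binds antioxidant response elements near genes for glutathione synthesis, thioredoxin reduction, quinone reduction and iron storage. NADPH from the pentose phosphate pathway feeds both the glutathione and the thioredoxin arm. Islet beta cells are known for low catalase and glutathione peroxidase.

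Yy1 itself stood at 175 ± 5.33 CPM (counts of a gene per 1e6 counts after TMM scaling; SD, n = 4) in the controls and at 5233 ± 464 CPM (SD, n = 4) in Yy1 libraries. Library totals ran from 20679565 (empty plasmid 33) to 30570342 estimated counts in the empty plasmid group and from 29679867 to 33347196 in the Yy1 group. Of 8 alpha cell markers 7 were detected, with Gcg, the proglucagon gene, at 21228 ± 547 and 21291 ± 372 CPM (SD, n = 4 each), while Gc was at 0 counts in all 8 libraries. Of the beta cell markers Ins1, Ins2 and Ucn3 were at 0 counts, which allows up to 0.145 CPM in the smallest library, although Nkx6-1 stood at 54.8 CPM. The summed level of 10 acinar and duct markers, of which 4 could be tested and 0 were called, ran from 22.1 to 25.5 CPM in the control libraries and from 24.4 to 28.1 CPM in the Yy1 libraries. Its part in the results below was not tested.

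NRF2 binds its targets through an element whose core can be written TGACNNNGC, so the promoter windows of the members were searched for it on both strands. Only these letters were sought. RefSeq promoter windows of build GRCm38.p6, from 250 bases before to 50 after a transcript start, were at hand for 35 of the 40 members, in 46 windows. The core was found in 11 of these windows, or 23.9%, against 12.4% of all 32851 windows in the table. It belonged to 11 members. In Me1 it spans the start, in Pgd and Srxn1 it lies after the start, and in the others it lies upstream. The Pgd match is in the window of a downstream start, and the window of a Pgd start further upstream held no match. They are shown because they differ in the 3 free bases and in the flanks that a reader would compare. Each is written 5′ to 3′ along the strand that carries the core, with the core in capitals.
Prdx1: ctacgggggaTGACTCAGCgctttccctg
Me1: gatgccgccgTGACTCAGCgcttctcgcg
G6pdx: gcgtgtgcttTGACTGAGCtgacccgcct
Txnrd1: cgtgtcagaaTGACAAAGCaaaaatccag
Gclm: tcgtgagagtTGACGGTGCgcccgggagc
Srxn1: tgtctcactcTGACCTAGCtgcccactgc
Sod1: ggcctgagtcTGACCACGCccaccttggc
Gstm5: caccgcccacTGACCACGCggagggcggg
Nfe2l2: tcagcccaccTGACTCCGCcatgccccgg
Mgst1: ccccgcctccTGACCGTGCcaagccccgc
Pgd: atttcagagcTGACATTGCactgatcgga
The Prdx1 and Me1 cores are the same 9 bases, as are those of Sod1 and Gstm5, and the other members each have a core of their own. In Prdx1 the printed stretch lies at chr4:116685456-116685484 on the minus strand, opposite to the gene, with the core from 133 bases upstream of the start. In Me1 it lies at chr9:86695902-86695930 on the minus strand, which is the gene's own, and the core begins 6 bases before the start and runs past it. Nfe2l2 has its core 240 bases upstream, at chr2:75704885-75704913 on the gene's own minus strand.

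A core of the motif that YY1 binds, GCCATNTT, was found in 1 of the 46 windows (2.17%, against 6.05% of all windows), that of Gpx1. The match begins 113 bases upstream of the Gpx1 start, and none of the matches to either motif overlapped another. The 250 bases before 3 starts are shown to give these matches their setting, with matches in capitals. They are those of Nfe2l2 (chr2:75704664-75704913, minus strand), of Prdx1 (chr4:116685349-116685598, plus strand) and of Gpx1 (chr9:108338830-108339079, plus strand).
Nfe2l2: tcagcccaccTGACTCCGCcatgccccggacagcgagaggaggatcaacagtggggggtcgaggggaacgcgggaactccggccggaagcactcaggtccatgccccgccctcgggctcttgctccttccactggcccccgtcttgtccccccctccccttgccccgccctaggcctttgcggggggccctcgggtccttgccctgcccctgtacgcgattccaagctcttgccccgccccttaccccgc
Prdx1: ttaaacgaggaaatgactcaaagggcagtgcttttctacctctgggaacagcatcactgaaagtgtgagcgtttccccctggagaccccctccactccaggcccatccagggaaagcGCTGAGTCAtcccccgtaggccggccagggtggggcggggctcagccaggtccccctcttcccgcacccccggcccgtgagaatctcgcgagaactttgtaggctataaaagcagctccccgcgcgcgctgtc
Gpx1: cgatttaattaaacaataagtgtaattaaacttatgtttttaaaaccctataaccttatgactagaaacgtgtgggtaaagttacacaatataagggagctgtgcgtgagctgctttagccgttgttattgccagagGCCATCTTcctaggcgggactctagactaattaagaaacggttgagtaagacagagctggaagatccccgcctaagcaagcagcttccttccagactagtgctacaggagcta
The Prdx1 stretch is printed along the gene, so its core reads in reverse complement. G and C made up 70.4% of the Nfe2l2 stretch, 61.6% of that of Prdx1 and 42% of that of Gpx1. A match to these letters is a description of sequence and says nothing of binding in these cells.

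Levels of different members were compared per length, as CPM per kb of the gene's principal transcript in GENCODE mouse release 21. With the empty plasmid they ran from 0.169 ± 0.0265 CPM per kb for Cat, which encodes catalase, to 1425 ± 72.7 CPM per kb for Ftl1, the light chain of the iron store ferritin (SD, n = 4 each). Ferritin's heavy chain gene Fth1 came next at 397 ± 22.0 CPM per kb, then Sod1, the cytosolic superoxide dismutase, at 284 ± 35.1, and Gpx4, which reduces lipid hydroperoxides in membranes, at 232 ± 11.9 (SD, n = 4 each). Of the 40 members, 14 stood in the top 10% of tested protein-coding genes by level per length, which runs from the 90th percentile up. They included the peroxiredoxin genes Prdx1 to Prdx5, Txn1 and Txnrd1. At the other end 5 members fell in the lowest 25%: Nqo1, Gsta4, Mgst1, Slc7a11 and Cat. Cat rested on 8 to 15 counts per empty plasmid library, where a count of 0 allows up to 3.

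**Figure D1:**
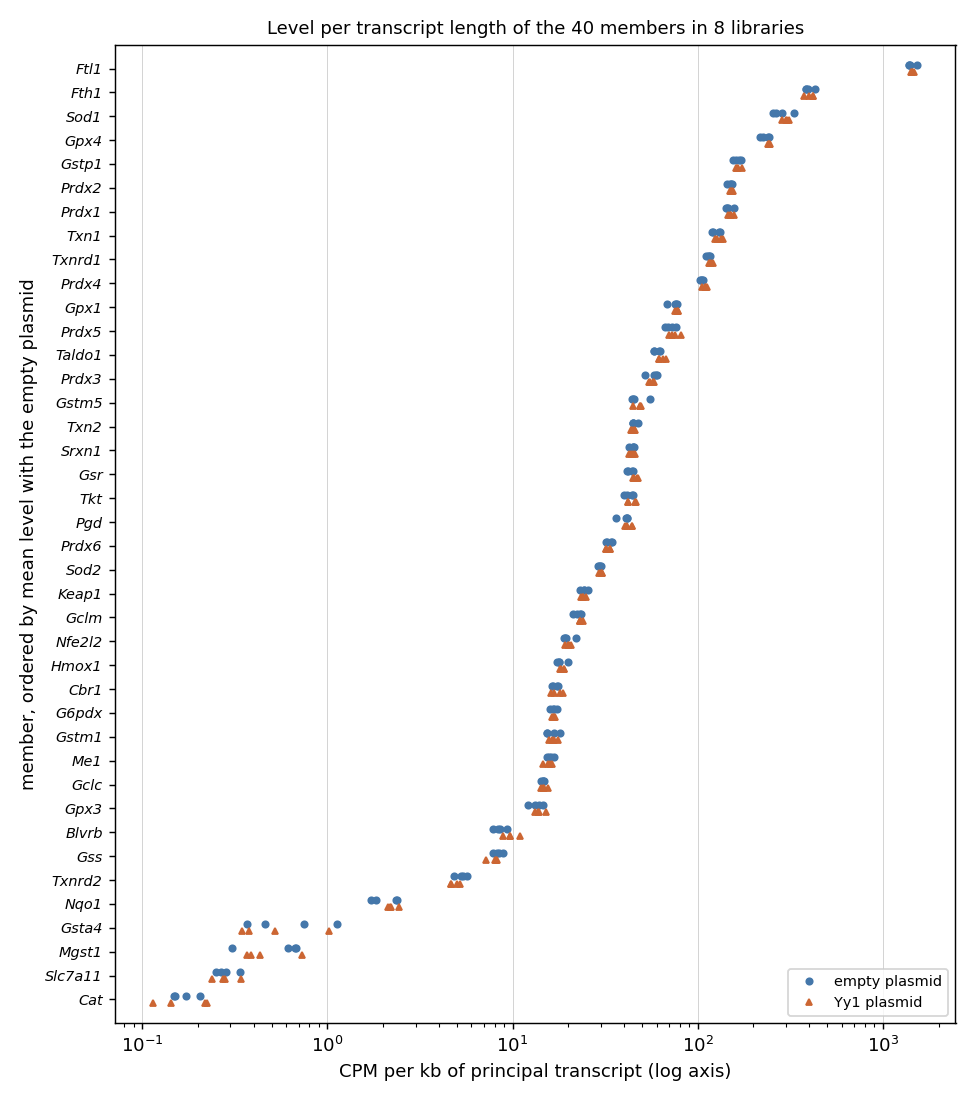
Level of each of the 40 members in each of the 8 libraries, in CPM per kb of principal transcript on a log axis, with circles for the empty plasmid and triangles for the Yy1 plasmid. Members run from Cat at 0.169 to Ftl1 at 1425 CPM per kb with the empty plasmid, and within each member the circles and triangles lie close together.

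The single comparison of the design asks how overexpressed Yy1 changes the transcriptome of these cells. Of the 40 members 0 were called at an adjusted p under 0.05 (edgeR quasi-likelihood test, Benjamini-Hochberg over all tested genes), where 0.515% of all tested genes were called and 0.496% were called higher. Unadjusted p-values under 0.05 were found for 3 members, Blvrb, Gsr and Taldo1, all higher with the Yy1 plasmid, or 7.5% of the list, against 5.42% of all tested genes in either direction and 3.23% higher. DESeq2 likewise called 0 members. All 40 members are protein-coding, and of the 12466 tested protein-coding genes edgeR called 0.0963%. Of those coding genes 4.46% had an unadjusted edgeR p under 0.05. Log2 fold changes of the members, Yy1 plasmid minus empty plasmid, ran from -0.26 to 0.21. Their median was 0.026, against a median of -0.002 over all tested genes. Log2 fold changes were above 0 for 29 members (72.5%) and below for 11, where 48.6% of all tested genes were above 0. Among genes at 10 CPM or more, 26 of 34 members were above 0, against 45% of the 9546 genes. In 0 members did the 4 libraries of one group all lie beyond the 4 of the other, where this held for 3.95% of all tested genes in either direction and 2.37% higher. The smallest exact permutation p of a member, two-sided on log2(CPM + 1), was 0.0571, and the smallest that 4 against 4 libraries allow is 0.0286.

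**Figure D2:**
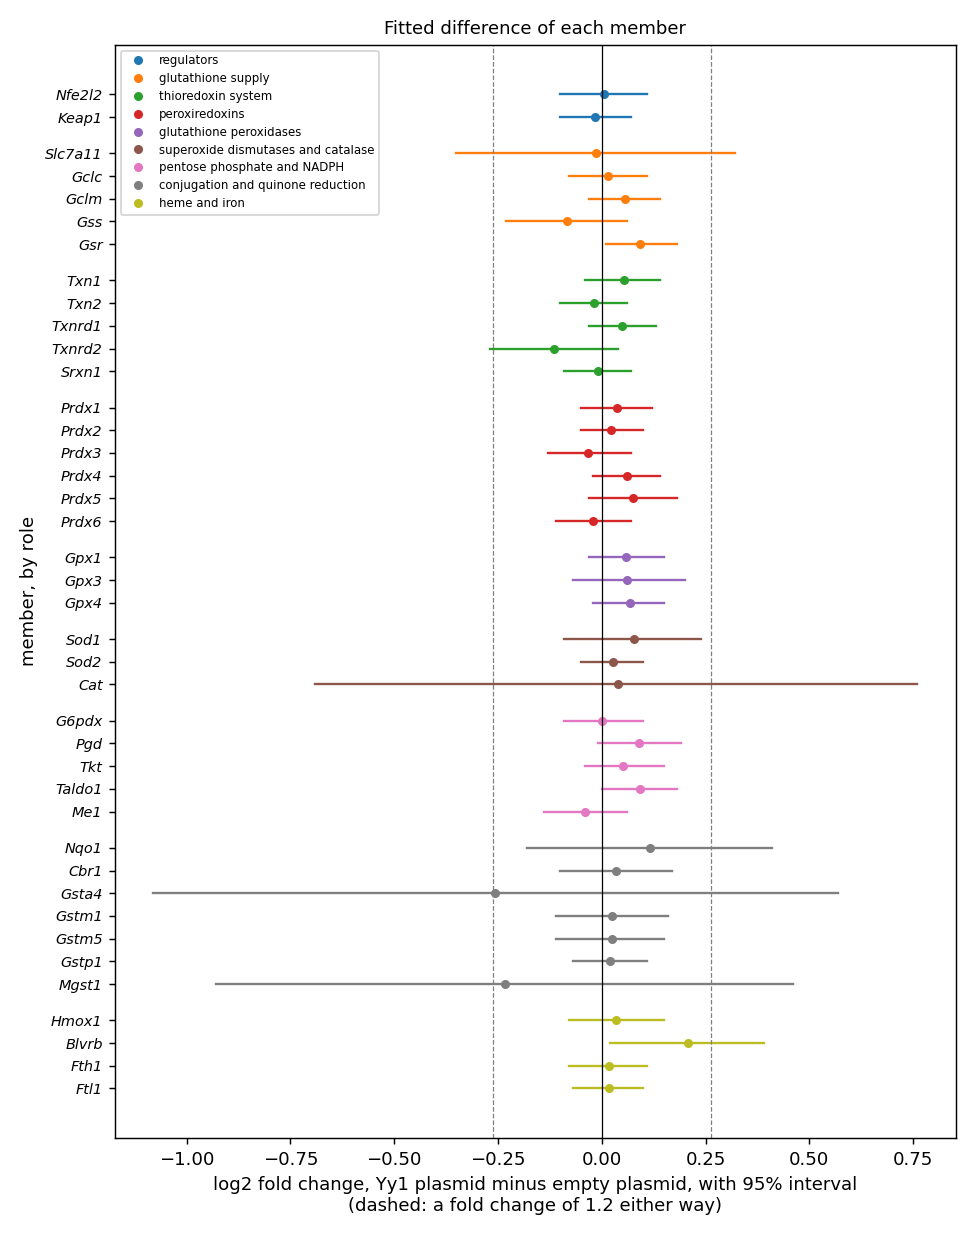
Log2 fold change of each member, Yy1 plasmid minus empty plasmid, with its 95% interval from the edgeR fit, coloured by role. For 33 of the 40 members the interval lies between the dashed lines at a fold change of 1.2 either way, and the widest belong to Cat, Gsta4 and Mgst1.

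The data limit how large a difference could be missed. For 33 members the 95% interval of the log2 fold change lay inside a fold change of 1.2 in either direction, as it did for 58.2% of all tested genes. Among members at 10 CPM or more this was so for 33 of 34, the exception being Txnrd2, against 92.7% of all genes at that level. The 6 other members whose intervals reached beyond were Slc7a11, Cat, Nqo1, Gsta4, Mgst1 and Blvrb, all below 10 CPM on average over the libraries.

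**Figure D3:**
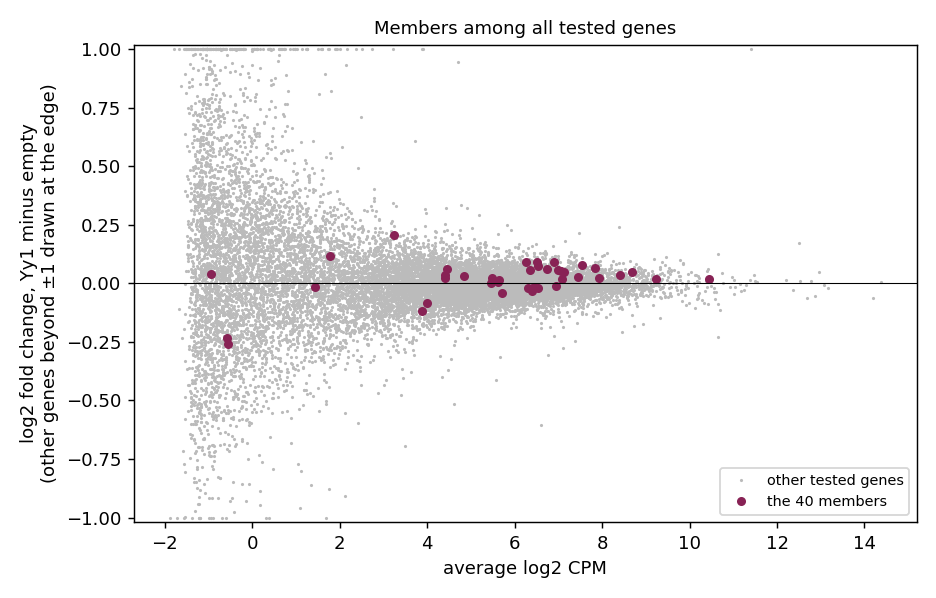
Log2 fold change against average log2 CPM for all tested genes (grey) and the 40 members (purple), with other genes beyond ±1 drawn at the edge. The members at higher levels lie within ±0.116 of 0, inside the cloud of other genes.

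Neither regulator differed beyond the spread of its libraries. Nfe2l2, with 48.1, 47.8, 54.5 and 47.0 CPM in empty plasmid 31 to 34, had 49.3, 51.3, 49.7 and 47.5 CPM in Yy1 plasmid 45 to 48. Empty plasmid 33 was the highest of the 8 and the groups overlapped. The log2 fold change of Nfe2l2 was 0.00 (SE 0.0502; 95% interval -0.10 to 0.11; edgeR adjusted p = 0.997). Keap1 had 92.5, 88.4, 87.8 and 84.0 CPM in the control libraries and 90.3, 86.4, 86.8 and 85.1 CPM in the Yy1 libraries, a log2 fold change of -0.02 (interval -0.10 to 0.07; edgeR adjusted p = 0.997). Its lowest and its highest library both belonged to the empty plasmid group.

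Genes of glutathione supply split in sign. Gsr encodes glutathione reductase, which uses NADPH to restore reduced glutathione. It stood at 118, 120, 113 and 111 CPM in the control libraries and 121, 119, 128 and 125 CPM in the Yy1 libraries. All Yy1 libraries but 46 stood above every empty plasmid library. The log2 fold change was 0.09 (SE 0.0412; interval 0.01 to 0.18; edgeR p = 0.0359, adjusted p = 0.869), and the exact permutation p was 0.0571. Gclc and Gclm encode the catalytic and modifier subunits of the enzyme that sets the rate of glutathione synthesis. Their log2 fold changes were 0.01 (interval -0.08 to 0.11) and 0.06 (interval -0.03 to 0.14). Gss, which encodes glutathione synthetase, the second enzyme, had -0.08 (interval -0.23 to 0.06). Slc7a11 encodes the transporter that brings in cystine for this synthesis and was rare, with 47 to 87 counts per empty plasmid library and 73 to 100 per Yy1 library.

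Of the thioredoxin system, which reduces protein disulfides and peroxiredoxins, 2 of 5 genes had log2 fold changes above 0. Txn1 encodes cytosolic thioredoxin and had 138, 127, 137 and 126 CPM in the control libraries and 141, 133, 144 and 130 CPM in the Yy1 libraries. In both groups the odd-numbered libraries stood above the even-numbered ones, an order whose share among members or all tested genes was not counted. The groups overlapped for Txn1 (log2 fold change 0.05, interval -0.04 to 0.14). Txnrd1, its cytosolic reductase, stood at 390 to 412 CPM with the empty plasmid and at 405 to 429 CPM with the Yy1 plasmid. In the mitochondrion the reductase is encoded by Txnrd2, which had 15.5, 13.9, 16.4 and 15.2 CPM against 13.4, 14.5, 15 and 13.3 CPM. Its log2 fold change of -0.12 (SE 0.073; interval -0.27 to 0.04; edgeR adjusted p = 0.953) was the lowest among members at 10 CPM or more. Txn2, mitochondrial thioredoxin, had -0.02 (interval -0.10 to 0.06), and Srxn1, the sulfiredoxin that rescues overoxidised peroxiredoxins, had -0.01 (interval -0.09 to 0.07).

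The 6 peroxiredoxin genes, whose enzymes break down hydrogen peroxide with a reactive cysteine, had 4 log2 fold changes above 0 and 2 below, from -0.03 to 0.08. Prdx4, whose product works in the endoplasmic reticulum, had 106, 104, 102 and 103 CPM in the control libraries and 111, 104, 110 and 109 CPM in the Yy1 libraries. All Yy1 libraries but 46 were above the empty plasmid libraries (log2 fold change 0.06, SE 0.0395, edgeR adjusted p = 0.956). Prdx5, found in mitochondria, peroxisomes and cytosol, had 96.0, 91.8, 87.0 and 83.9 CPM against 103, 91.2, 95.4 and 88.5 CPM. Yy1 plasmid 45 was its highest library and the rest overlapped (log2 fold change 0.08, SE 0.0508, edgeR adjusted p = 0.957). Prdx1 and Prdx2, the main cytosolic forms, had 0.04 and 0.02, mitochondrial Prdx3 had -0.03, and Prdx6, which also has phospholipase activity, had -0.02. The CPM of the 6 genes summed to between 935 and 938 in the empty plasmid libraries and to between 948 and 973 in the Yy1 libraries. The sums of each other role overlapped between the groups, such as 743 to 782 against 765 to 802 for the thioredoxin system. The peroxiredoxin sum was not tested or tried with other scalings, and 0 of the 6 genes separated the groups alone. In the empty plasmid libraries this sum had an SD of 1.72 CPM, against 16.6 CPM for Prdx1 alone. Deviations of single genes thus offset each other there. How often the sums of other gene sets separate the groups was not computed.

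All 3 glutathione peroxidase genes, which encode selenoproteins, had log2 fold changes above 0, of 0.06 for Gpx1, 0.06 for the secreted form Gpx3 and 0.07 for Gpx4, and 0 of the 3 passed the test. Gpx4 had 230, 234, 217 and 209 CPM in the control libraries and 236, 230, 232 and 234 CPM in the Yy1 libraries. The Yy1 libraries lay close together near the top of the range of the empty plasmid libraries (SE 0.0407, edgeR adjusted p = 0.952). Gpx1, the gene with the YY1 core printed above, had 81.4, 83.2, 73.3 and 81.0 CPM against 83.8, 81.2, 83.2 and 84.1 CPM. Its lowest library was empty plasmid 33, and its interval was -0.03 to 0.15.

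Sod1, among the enzymes that remove superoxide and peroxide, had the widest spread between libraries of the members at 10 CPM or more. It had 183, 163, 213 and 169 CPM in the control libraries and 194, 182, 200 and 191 CPM in the Yy1 libraries. The highest and the lowest library were both in the empty plasmid group, and in each group the odd-numbered libraries were above the even-numbered. Its log2 fold change was 0.08 (SE 0.0745; interval -0.09 to 0.24; edgeR adjusted p = 0.991). Without empty plasmid 33 the log2 fold change was 0.16 (SE 0.042; edgeR adjusted p = 0.113), the lowest adjusted p of any member in any setting tried. Without empty plasmid 32 it was 0.03, and without empty plasmid 34 it was 0.04. Sod2, the mitochondrial form, was steadier at 169 to 176 CPM and 172 to 179 CPM (log2 fold change 0.03, interval -0.05 to 0.10). Cat had 12, 12, 8 and 15 counts in the control libraries and 19, 17, 10 and 12 in the Yy1 libraries, or 0.301 to 0.583 CPM over all libraries. Its interval of -0.69 to 0.76 is too wide to place a difference.

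**Figure D4:**
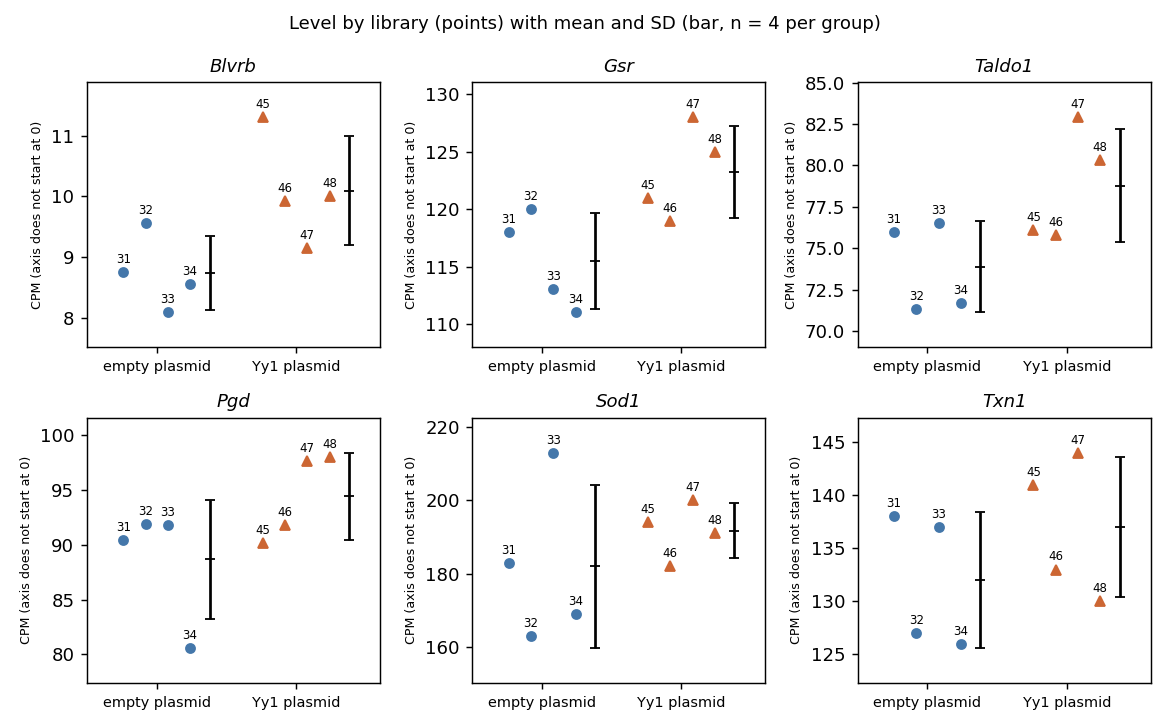
CPM of 6 members in each library, labelled by its number, with the group mean and SD as a bar (n = 4 per group, vertical axes not starting at 0). Blvrb, Gsr, Taldo1 and Pgd have the smallest edgeR p-values, from 0.0296 to 0.0668, and overlap between the groups. Sod1 and Txn1 are higher in odd-numbered than in even-numbered libraries of each group, and the share of genes with this order was not counted.

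In the pentose phosphate pathway, and around its product NADPH, 4 of 5 genes had log2 fold changes above 0. G6pdx, which encodes the dehydrogenase that commits glucose 6-phosphate to the pathway, stood at 42.3 to 46.2 CPM in every library and its log2 fold change was 0.00 (interval -0.09 to 0.10). Pgd encodes the next NADPH-forming dehydrogenase and had 90.4, 91.9, 91.8 and 80.6 CPM in the control libraries and 90.2, 91.8, 97.6 and 98.0 CPM in the Yy1 libraries. Empty plasmid 34 was low, and only Yy1 plasmid 47 and 48 stood above the other libraries (log2 fold change 0.09, SE 0.0471, edgeR p = 0.0668, adjusted p = 0.928; exact permutation p = 0.257). Without empty plasmid 34 this log2 fold change was 0.05. Taldo1 encodes transaldolase of the non-oxidative branch. Its values were 76.0, 71.3, 76.5 and 71.7 CPM against 76.1, 75.8, 82.9 and 80.3 CPM. Here too Yy1 plasmid 47 and 48 were the highest, and 45 and 46 lay among the empty plasmid libraries (log2 fold change 0.09, SE 0.0441, edgeR p = 0.0465, adjusted p = 0.909; exact permutation p = 0.143). Tkt, which encodes transketolase, the partner enzyme of that branch, showed the same 2 libraries highest, at 147 and 149 CPM, with a log2 fold change of 0.05 (interval -0.04 to 0.15). Me1, the cytosolic malic enzyme, which makes NADPH outside the pathway, had -0.04 (interval -0.14 to 0.06).

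Genes of conjugation and quinone reduction ranged widely in level per length, from Gstp1 in the top 10% of tested coding genes to Nqo1, Gsta4 and Mgst1 in the lowest 25%. Nqo1, a quinone reductase and a standard readout of NRF2, had 3.64, 2.86, 3.68 and 2.68 CPM in the control libraries and 3.44, 3.77, 3.37 and 3.32 CPM in the Yy1 libraries. Its groups overlapped, with a log2 fold change of 0.12 (SE 0.142; interval -0.18 to 0.41; edgeR adjusted p = 0.993). Gstp1 was the highest of the glutathione transferases per length, at 163 ± 6.54 and 165 ± 5.53 CPM per kb (SD, n = 4 each). Gstm5, at 41.5, 42.8, 52.2 and 42.1 CPM with the empty plasmid, was high in library 33, and its log2 fold change moved from 0.02 to 0.10 without that library (edgeR adjusted p = 0.718). Gstm1 had 0.02 (interval -0.11 to 0.16) and Cbr1, a carbonyl reductase, had 0.04 (interval -0.10 to 0.17). Gsta4, a transferase for lipid aldehydes, had 34, 12, 15 and 10 counts in the control libraries and 11, 11, 17 and 32 in the Yy1 libraries. Mgst1, a membrane-bound transferase, had 22, 21, 16 and 10 counts against 14, 15, 15 and 27. Both overlapped widely, at log2 fold changes of -0.26 (SE 0.395) and -0.23 (SE 0.335).

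Heme and iron genes held the member with the smallest p. Blvrb, which encodes biliverdin reductase B, an NADPH-dependent flavin and biliverdin reductase, had 8.76, 9.56, 8.09 and 8.55 CPM with the empty plasmid. With the Yy1 plasmid it had 11.3, 9.93, 9.15 and 10 CPM, so that 3 of 4 libraries stood above every empty plasmid library. The log2 fold change was 0.21 (SE 0.0889; interval 0.02 to 0.39; edgeR p = 0.0296, adjusted p = 0.826; exact permutation p = 0.0571). Leaving out single libraries gave values from 0.14 without Yy1 plasmid 45 to 0.25 without Yy1 plasmid 47 or without empty plasmid 32. Hmox1 encodes the inducible heme oxygenase, which makes biliverdin, and stood at 27.8, 31.1, 27.4 and 27.8 CPM against 28.4, 28.8, 29.8 and 29.7 CPM (log2 fold change 0.03, interval -0.08 to 0.15). Empty plasmid 32 was its highest library. Ftl1 had 1355, 1484, 1332 and 1346 CPM in the control libraries and 1379, 1395, 1416 and 1393 CPM in the Yy1 libraries. Empty plasmid 32 was again highest (log2 fold change 0.02, interval -0.07 to 0.10). Fth1 had 571, 575, 642 and 587 CPM against 628, 623, 596 and 557 CPM, highest in empty plasmid 33 and lowest in Yy1 plasmid 48 (log2 fold change 0.02, interval -0.08 to 0.11).

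The CPM of all 40 members summed to 5430, 5535, 5520 and 5367 with the empty plasmid and to 5577, 5542, 5641 and 5559 with the Yy1 plasmid. These sums did not overlap, but the gap between empty plasmid 32 and Yy1 plasmid 46 was small, and the outcome depended on the scaling. With RLE (5369 to 5531 against 5550 to 5634) and upper-quartile scaling (5373 to 5536 against 5560 to 5659) they did not overlap, and with library size alone (5380 to 5553 against 5526 to 5630) they did. Ftl1 makes up much of the sum, and without it the groups overlapped with TMM (4021 to 4188 against 4147 to 4225) and RLE scaling (4023 to 4196 against 4153 to 4220). They did not with upper-quartile scaling (4026 to 4145 against 4161 to 4238) or library size alone (4031 to 4139 against 4141 to 4217). The members' median deviation from their 8-library mean, in log2(CPM + 1), was lowest in empty plasmid 34 at -0.0459 and highest in Yy1 plasmid 48 at 0.0226. Over all tested genes these medians were -0.0005 and 0.0002. Empty plasmid 34 was the lowest of the 8 libraries for 11 members and the highest for 0. It was at an extreme, whether highest or lowest, for 27.5% of members, against 24.9% of all tested genes. The share of all tested genes with empty plasmid 34 as the lowest library was not computed. These either-direction shares therefore give no background for the 11 members lowest in it. Empty plasmid 33, the smallest library, was the highest or lowest for 16 members (40%), and for 38.7% of all tested genes. Thinned to its depth, the comparison gave a median of 0.0265 for the 39 members then tested, with 29 above 0. Without empty plasmid 34 the median was 0.0208, 26 members were above 0 and 0 had an unadjusted edgeR p under 0.05.

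**Figure D5:**
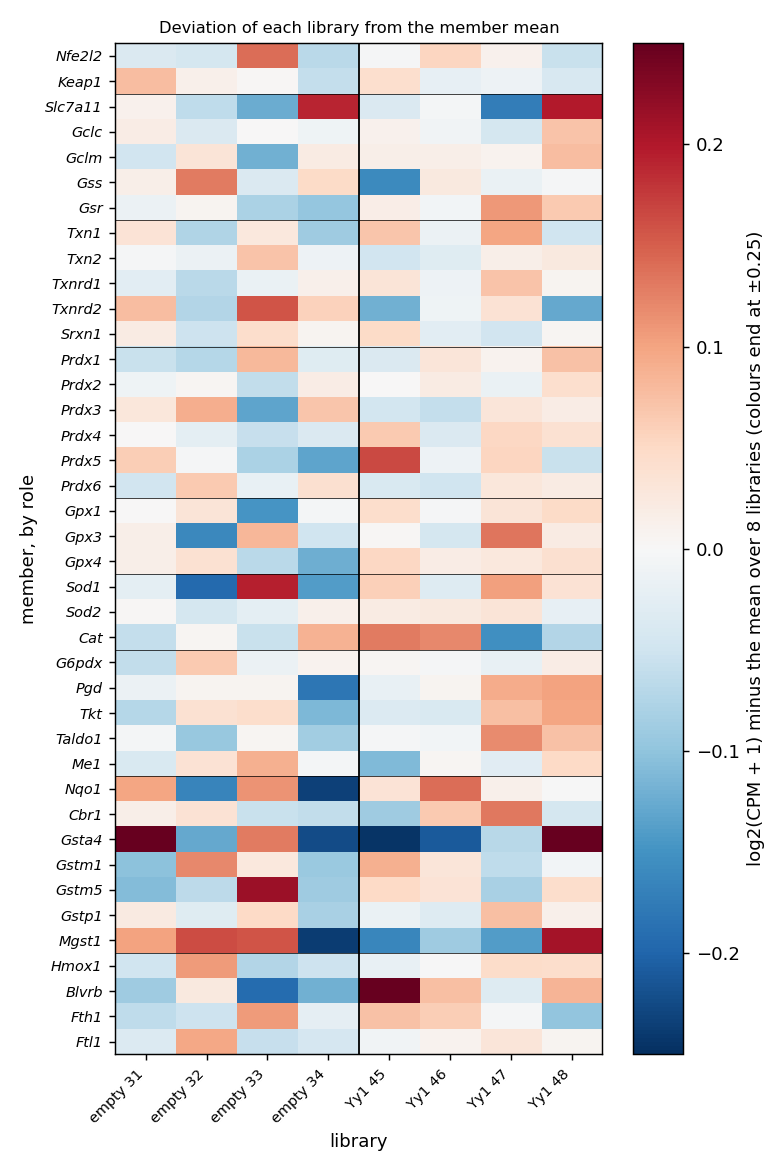
Deviation of each library (columns) from the 8-library mean of each member (rows, ordered by role), in log2(CPM + 1), red above and blue below the mean. Blue is frequent in empty plasmid 34, which is the lowest library for 11 members, and strong colours in rows such as Gsta4 and Mgst1 go with low counts.

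The members were also grouped by place, by selenium and by the printed core. The 4 members whose products work mainly in mitochondria (Txn2, Txnrd2, Prdx3 and Sod2) had 1 log2 fold change above 0 and a median of -0.026. Prdx5, whose product is found there and elsewhere, is not among them and had 0.08. The 5 that encode selenoproteins (Gpx1, Gpx3, Gpx4, Txnrd1 and Txnrd2) had 4 above 0 and a median of 0.058. The selenoprotein genes Txnrd3 and Msrb1, measured beside the members, went the other way, at -0.10 and -0.11. The 11 members with the antioxidant response core in any of their windows had a median of 0.024 with 8 above 0. The 24 with a window but no core had a median of 0.031 with 18 above 0. Only the letters TGACNNNGC within those windows were searched, so the 24 may still hold elements written otherwise or lying elsewhere. As to replicate error, the biological coefficient of variation of the 34 members at 10 CPM or more had a median of 4.52%, from 4.07% to 7.43% for Sod1, against a median of 4.87% for all 9546 genes at that level.

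Further genes of the same pathways were measured beside the members. Among regulators, Gsk3b, a kinase that marks NRF2 for degradation, stood at 175 ± 10.1 and 182 ± 4.1 CPM (SD, n = 4 each), a log2 fold change of 0.05 (interval -0.04 to 0.14). Cul3, the ubiquitin ligase scaffold that KEAP1 brings to NRF2, had -0.04 (interval -0.12 to 0.04).

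Of 19 tested genes listed as further NRF2 targets 8 were above 0. The list also holds genes that need not be targets, such as Hmox2, the constitutive heme oxygenase. The smallest p belonged to Blvra, biliverdin reductase A, with 12.9 ± 0.498 and 14.3 ± 1.07 CPM (SD, n = 4; log2 fold change 0.15, edgeR adjusted p = 0.909). Akr1b3, an aldose reductase, had 0.07, and Hmox2 had -0.10. Of 22 tested further glutathione genes 13 were above 0. Those with the smallest edgeR p were the transferase Gstt2 (log2 fold change 0.18, edgeR adjusted p = 0.859), Glo1, a glyoxalase (0.07), and the transferase Gstk1 (0.30, SE 0.167). Among 19 tested thioredoxin and oxidant repair genes 13 were above 0. Smallest in edgeR p were Msra, a methionine sulfoxide reductase (log2 fold change 0.22, edgeR adjusted p = 0.909), the thioredoxin-like Nxn (0.19) and Msrb3 (0.26). Of 19 tested pentose phosphate and NADPH genes 13 were above 0. Pgls, whose enzyme stands between those of G6pdx and Pgd, had 39.1 ± 1.2 and 36.2 ± 2.21 CPM (SD, n = 4; log2 fold change -0.11, edgeR adjusted p = 0.909), while Idh1 and Rpe, for a cytosolic NADPH-forming dehydrogenase and an epimerase, had 0.07 and 0.06. Among the tested genes listed as further NRF2 targets, glutathione, thioredoxin and repair, or pentose phosphate and NADPH genes, 0 passed edgeR's adjusted threshold. In each of these lists 1 gene had an unadjusted edgeR p under 0.05.

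Some members share sequence with other genes, so their estimated counts may be divided. In GENCODE transcripts, 12 members had another gene aligned at 95% identity or more over at least 200 bases. For 8 of them (Ftl1, Gpx4, Gstm1, Gstp1, Prdx1, Prdx2, Sod1 and Txn1) these were copies, and the copies held little: the largest were Ftl1-ps1 at 1.54 ± 0.612 CPM and Gstp2 at 0.782 ± 0.203 CPM with the empty plasmid (SD, n = 4). Me1 has a pseudogene, Gm7049, alike over 1716 bases, at 3.36 ± 0.562 CPM. Slc7a11 is less certain, since 373 bases of its long transcript resemble alpha-tubulin genes such as Tuba1b, which stood at 1165 CPM beside 2.62 ± 0.353 CPM for Slc7a11 (SD, n = 4). Prdx5 shares 360 identical bases with Trmt112, at 50.1 CPM, and Keap1 shares 209 with the antisense gene Gm16754, at 4.18 CPM. The strand of the alignments was not checked, so whether reads of a directional library would be divided was not tested.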

How the data were processed

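Poly(A) RNA libraries of 8 samples were made with a directional kit, per the labels' protocols. Per the submitters' processing notes fastp and kallisto were used with build GRCm39. Versions, annotation and the summing to genes are not given in the sources used here. The authors deposited estimated counts per gene (expected counts), not scaled for depth, of which 14.7% were fractional, and these were rounded. No column was left unused. Symbols came from GENCODE mouse release 21, of an older build, and matched 48278 IDs. Totals ran from 20679565 to 33347196 counts, and 3 counts equal 0.145 and 0.09 CPM at these depths. Limits on counts cover counting error only.

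Low genes were removed by filterByExpr (at least 10 counts, total of 15 or more). Counts were then scaled by TMM, and the test was two-sided, with edgeR 4.0.16 (glmQLFit and glmQLFTest, robust; R 4.3.3), with Benjamini-Hochberg adjustment over 15916 genes at 0.05. Both groups entered 1 fit with group as its only term. SE was the log2 fold change's size over the square root of F, and 95% intervals used the t quantile at the fit's degrees of freedom. Exact permutation tests ran over 70 arrangements. The edgeR step was tested on simulated data. Replicate pairs differed by more than sampling noise (chi-square per degree of freedom 2.76 to 12.4).

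The members and lists were chosen with earlier results of these data known. All 40 members are named, with values per library for the regulators, the 8 smallest p-values, the 4 highest levels per length and members under 1 CPM, and the 3 smallest p-values of each further list, except for 1 item that is not reported here. Alternatives were other scalings (RLE, upper-quartile, library size, Yy1 left out), filters (1 CPM in 4 libraries, none), DESeq2 1.42.0, limma-voom 3.58.1, thinning, 1 surrogate variable (sva 3.50.0), genes with a symbol only and each library left out. Shared sequence was sought with BLAST 2.17.0. A planned comparison of protein sequences was not run, as protein sequences were not used here.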

Additional observations from a re-analysis of the deposited data

Results flagged for a closer look

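In each group of 4 libraries, a library was marked where its gap to the nearest other library, as a share of the group's range in CPM, exceeded Dixon's 95% critical value. This rule marks about 1 in 20 groups by chance, or 4 of the 80 examined, and it marked 8. Empty plasmid 33, the smallest library, was marked high for Nfe2l2 at 54.5 CPM (the others 47.0 to 48.1), for Txn2 at 97.1 CPM (91.6 to 92.2) and for Gstm5 at 52.2 CPM (41.5 to 42.8). Empty plasmid 32 was marked high for Hmox1 at 31.1 CPM (27.4 to 27.8) and for Ftl1 at 1484 CPM (1332 to 1355). Empty plasmid 34 was marked low for Pgd at 80.6 CPM (90.4 to 91.9). In the Yy1 group, library 48 was marked high for Gclm at 135 CPM beside 129 CPM in the others, and library 47 low for Gstm5 at 42.3 CPM (45.9 to 46.4).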

How the results depend on the processing

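The number of members called was 0 in the reported fit and in all 19 alternatives, and the lowest adjusted p of a member in any of them was 0.113. The median log2 fold change of the members stayed above 0 in every alternative, and 25 to 29 members were above 0 when single libraries were left out. Groups that did not overlap were found for 1 member when thinned (Txnrd1) and for 1 with upper-quartile scaling (Taldo1), and for 0 to 6 members when single libraries were left out. The 6 came without empty plasmid 32 (15% of members, against 7.42% of all genes then tested). The number of members with an unadjusted p under 0.05 was 3, and ran from 0 without empty plasmid 34 to 5 without empty plasmid 32. Over all genes, 82 were called, against 54 with the 1 CPM filter, 174 with no filter and 20 among genes with a symbol only. Of 756 member values, 39 changed sign, in 15 members whose reported change was smaller than its standard error. No paired analysis was run, because the labels give no pairing of libraries between the groups. Counts limit what can be said of Cat, Gsta4 and Mgst1.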
